A study of Mus musculus with 12 samples.

Results

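The lysyl oxidase family consists of Lox and its relatives Loxl1, Loxl2, Loxl3 and Loxl4, 5 genes by name. Each gene was followed through its probe set of highest mean among those annotated to that symbol alone, which 4 of the 5 have, out of 19938 genes read in this way. The only probe set that names Loxl2 also names Gm21451, so Loxl2 was not analysed here. Lox, Loxl1 and Loxl3 each had 1 such probe set and Loxl4 had 2. All 4 genes passed the filter on dim probe sets and were tested with 14944 genes in all.

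The ascending aortas came from mice 6 weeks old, and their RNA was measured on 12 whole-transcript arrays, 3 in each of 4 groups. In the Fbn1 mutant knockouts, mice heterozygous for the Fbn1 C1039G allele (Fbn1C1039G/+, a Marfan syndrome model), which also carry Myh11-CreERT2 and Tgfbr2f/f, received tamoxifen. The wild-type knockouts carry Myh11-CreERT2 and Tgfbr2f/f with normal Fbn1 and received tamoxifen as well. The Fbn1 mutant controls and the wild-type controls have the matching genotypes and received corn oil. Injections were given on 5 days from an age of 4 weeks, with 1 mg of tamoxifen. Floxed Tgfbr2, which encodes the type II TGF-beta receptor, and the inducible Cre are thus shared by all 4 groups. Because the Cre is driven from Myh11, it targets smooth muscle, while the RNA is that of the whole vessel piece. Knockout against control is also tamoxifen against its vehicle, and the effects of drug and deletion cannot be told apart. Nothing in the labels says whether the arrays of a group are from different animals, so the p-values take in only how far these arrays spread, which may be technical.

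Levels are given as log2 of the deposited RMA intensity and differences as log2 differences of group means ± limma's standard error, with 3 arrays in each group. A gene was called at an adjusted p under 0.05, by limma with Benjamini-Hochberg adjustment over all 14944 genes. Median intensity lay between 301 and 334 over the arrays, and correlations between arrays of 1 group lay between 0.995 and 0.997. The probe set of Tgfbr2 read 11.87 ± 0.08 in wild-type knockouts and 11.95 ± 0.01 in wild-type controls (SD, n = 3), with a limma adjusted p of 0.324. In the mutant it read 12.03 ± 0.05 in knockouts and 11.99 ± 0.04 in controls (SD, n = 3), with a limma adjusted p of 0.594. A loss of the transcript was thus not measured by this probe set, whose position relative to the deleted part is not known here. The free-text descriptions of knockout arrays 2 and 3 of each genotype name Tgfbr3 and Tgfbr4 as the gene knocked out, while their titles carry Tgfbr2f/f. Groups were taken from the titles, and "knockout" is used in that sense. All 6 smooth muscle markers examined passed the filter, with summed intensities between 88968 and 93938 over the arrays. In bulk tissue, fewer cells of a type and less RNA per cell cannot be told apart.

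Lysyl oxidases are copper enzymes of the extracellular matrix that oxidise lysine side chains of elastin and collagens to reactive aldehydes. The aldehydes then form the covalent crosslinks that give elastic lamellae and collagen fibrils their strength. Lox and Loxl1 are made with a propeptide that proteases of the Bmp1 family remove, while Loxl2, Loxl3 and Loxl4 carry scavenger receptor domains ahead of the catalytic domain. In mice, loss of Lox leads to aortic aneurysm and rupture and loss of Loxl1 to defective elastic fibres. TGF-beta is a known inducer of Lox in cultured cells.

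The table of promoters used here (GRCm38.p6) held 1 of the 5 genes, Loxl4, and its promoter is shown for that reason. Lox, Loxl1 and Loxl3 are annotated in RefSeq too but were not in that table. The 250 bases before its annotated start lie at chr19:42612807-42613056 on the minus strand. They are written 5′ to 3′ with the match to the SMAD box, the short motif bound by the transcription factors of the TGF-beta pathway, in capitals.
Loxl4: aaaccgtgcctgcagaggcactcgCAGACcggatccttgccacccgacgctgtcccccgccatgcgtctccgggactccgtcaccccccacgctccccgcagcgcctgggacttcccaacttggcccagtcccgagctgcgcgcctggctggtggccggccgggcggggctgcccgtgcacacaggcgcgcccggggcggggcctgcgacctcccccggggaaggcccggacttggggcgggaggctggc
The window has a GC content of 76.0%. The SMAD box CAGAC, searched on both strands, matched 1 time, 226 bases before the start, and 42.2% of 32851 promoter windows of this length hold at least 1 match. The GC box GGGCGG matched 3 times, against 32.7% of windows with a match. The AP-1 site TGACTCA and the hypoxia response core ACGTG had 0 matches in this window, and 4.5% and 16.6% of windows hold them. No 2 of these matches overlap. Such matches describe letters and were not tested as sites.

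**Figure D1:**
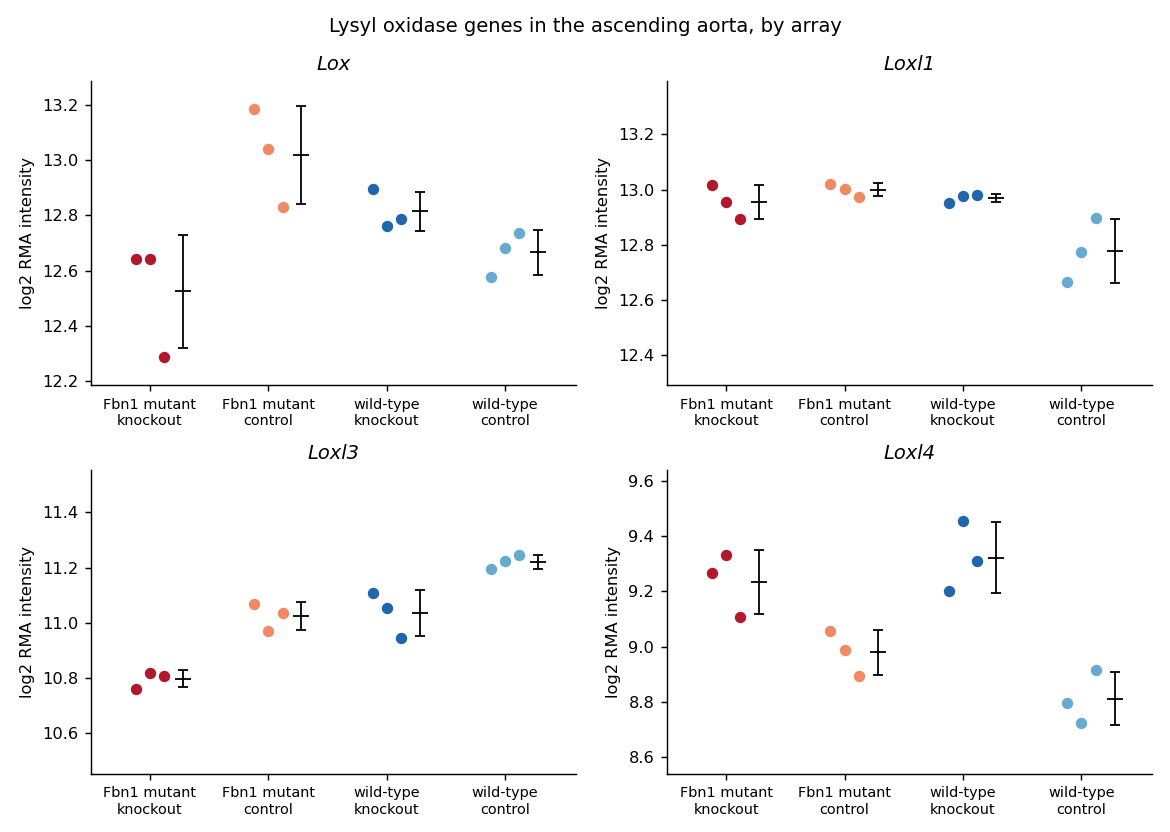
Log2 RMA intensity (vertical axes, which all span the same height) of Lox, Loxl1, Loxl3 and Loxl4 in each array. Columns are Fbn1 mutant knockouts, Fbn1 mutant controls, wild-type knockouts and wild-type controls, points are arrays 1 to 3 from left to right, and bars are the mean ± SD (n = 3). Lox is lowest in mutant knockouts and highest in mutant controls, Loxl1 is low in wild-type controls, Loxl3 is lowest in mutant knockouts, and Loxl4 is higher in knockouts of either genotype.

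The group means of the 4 genes came in different orders, and arrays of groups next to each other in an order often overlapped. Lox, the founding member, was lower in knockouts of the mutant and not called in the wild-type. Loxl1 was lowest in wild-type controls, with the other 3 groups close together. Loxl3 was lower after either change and lowest with both, and Loxl4 was higher in knockout arrays.

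Lox showed the widest spread of levels between arrays. In mutant knockouts 1 to 3 its level was 12.64, 12.64 and 12.29, against 13.18, 13.04 and 12.83 in mutant controls 1 to 3. In wild-type knockouts 1 to 3 it was 12.90, 12.76 and 12.79, against 12.58, 12.68 and 12.74 in wild-type controls 1 to 3. Each mutant knockout thus lay below each mutant control, and each wild-type knockout lay above each wild-type control, with the last pair of groups close. Mutant knockout 3 lay furthest below the others and mutant control 1 furthest above.

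In the Fbn1 mutant, Lox fell by 0.49 ± 0.10 in knockouts, to a fold of 0.711, with a limma adjusted p of 0.0100. Of all genes tested, 2.43% differed by more in that comparison. The call held without any 1 of the 12 arrays, with differences between -0.59 and -0.37. In the wild-type the difference was 0.15 ± 0.10, with a 95% confidence interval of -0.07 to 0.37 and a limma adjusted p of 0.358. The difference between these knockout effects, mutant minus wild-type, was -0.64 ± 0.15 with a 95% interval of -0.96 to -0.33 and a limma adjusted p of 0.0512, just past the threshold. Without mutant control 3 it was -0.74 and passed, with a limma adjusted p of 0.0252, as it did under 6 other settings, with limma adjusted p-values of 0.0253 to 0.0493.

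The Fbn1 mutation alone had Lox at 13.02 ± 0.18 in mutant controls and 12.67 ± 0.08 in wild-type controls (SD, n = 3). The groups did not overlap, as was so for 28.1% of all genes, and this difference of 0.35 ± 0.10 had a limma adjusted p of 0.0619. It passed without mutant control 3 or mutant knockout 3, with limma adjusted p-values of 0.0289 and 0.0256, and under 3 other settings, a variance trend, array weights and leaving out the 2 arrays of highest fat marker level (mutant knockout 1 and mutant control 3, a choice made after seeing the data), with limma adjusted p-values of 0.0271 to 0.0471. Among knockouts the mutant stood at 12.53 ± 0.21 and the wild-type at 12.81 ± 0.07 (SD, n = 3), a difference of -0.29 ± 0.10 with a limma adjusted p of 0.129. In the order of levels, mutant controls came first, then wild-type knockouts, wild-type controls and mutant knockouts. The arrays of mutant controls overlapped those of wild-type knockouts, and the arrays of wild-type controls overlapped those of mutant knockouts.

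Loxl1, the member tied to elastic fibre upkeep, moved within a narrow range. In mutant knockouts 1 to 3 it read 13.02, 12.95 and 12.89, against 13.02, 13.00 and 12.97 in mutant controls 1 to 3. In wild-type knockouts 1 to 3 it read 12.95, 12.98 and 12.98, against 12.66, 12.77 and 12.90 in wild-type controls 1 to 3. Wild-type control 3 came close to the other groups and overlapped the mutant knockouts.

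Loxl1 rose in knockouts of the wild-type by 0.19 ± 0.06, a fold of 1.14, with a limma adjusted p of 0.0386. In the mutant the knockouts differed by -0.04 ± 0.06, with a 95% interval of -0.17 to 0.08. The difference between the 2 effects was -0.23 ± 0.08 and did not pass, with a limma adjusted p of 0.183. Among controls, Loxl1 rose in the mutant by 0.22 ± 0.06, a fold of 1.17, with a limma adjusted p of 0.0441. Among knockouts the mutant and the wild-type differed by -0.01 ± 0.06. Both calls use the wild-type controls and lie close to the threshold. The first was lost without wild-type control 1 or 2, wild-type knockout 1, 2 or 3, mutant control 2 or mutant knockout 2, with limma adjusted p-values of 0.0505 to 0.137. It was also lost under 5 other settings, with no filter, median centring, only the groups compared, the replicate block or without the 2 arrays of highest fat marker level, with limma adjusted p-values of 0.0506 to 0.0846. The second held only without wild-type control 3 or mutant knockout 3 and was lost without any 1 of the other 10 arrays, with limma adjusted p-values of 0.0523 to 0.133. Those 5 settings and quantile normalization ended it too, with limma adjusted p-values of 0.0549 to 0.112.

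Loxl3, a member with scavenger receptor domains whose loss in mice disturbs palate and spine development, was the one called in most comparisons. In mutant knockouts 1 to 3 it read 10.76, 10.82 and 10.81, against 11.07, 10.97 and 11.03 in mutant controls 1 to 3. In wild-type knockouts 1 to 3 it read 11.11, 11.05 and 10.95, against 11.20, 11.22 and 11.25 in wild-type controls 1 to 3. All mutant knockouts lay below all other arrays and all wild-type controls above them, a pattern whose share over all genes was not counted. The 2 groups between overlapped, with means of 11.04 ± 0.08 in wild-type knockouts and 11.02 ± 0.05 in mutant controls (SD, n = 3).

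Loxl3 fell in knockouts by 0.23 ± 0.05 in the mutant (limma adjusted p 0.0146) and by 0.19 ± 0.05 in the wild-type (limma adjusted p 0.0249). Averaged over the genotypes it fell by 0.21 ± 0.04, a change of -13.3%, with a limma adjusted p of 0.00129. With the Fbn1 mutation it fell by 0.24 ± 0.05 among knockouts (limma adjusted p 0.0173) and by 0.20 ± 0.05 among controls (limma adjusted p 0.0417). The difference between the knockout effects was -0.04 ± 0.07, with a 95% interval of -0.20 to 0.12. The fall averaged over genotypes held without any 1 array, while each single comparison depended on some. The call in the mutant was lost without mutant control 1 or mutant knockout 1, with limma adjusted p-values of 0.0512 and 0.0538, and that in the wild-type without wild-type control 2, wild-type control 3 or wild-type knockout 3, with limma adjusted p-values of 0.0664 to 0.111. The first was also lost without the 2 arrays of highest fat marker level (limma adjusted p 0.0927), and the second with quantile normalization or only the groups compared (limma adjusted p 0.0505 and 0.0624). The call for the mutation among knockouts was lost without wild-type knockout 1, wild-type knockout 2 or mutant knockout 1, with limma adjusted p-values of up to 0.0815. That among controls held only without wild-type knockout 1, wild-type knockout 3 or mutant knockout 3, with limma adjusted p-values of up to 0.168 without the others. For the mutation, 2 other settings ended the call among knockouts (limma adjusted p 0.0538 and 0.104) and 4 ended it among controls (limma adjusted p 0.0551 to 0.0972). The direction was downward under every alternative run for Loxl3 in these comparisons.

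Loxl4, whose protein also carries scavenger receptor domains, was called upward in knockouts of the wild-type and just missed the threshold in those of the mutant. In mutant knockouts 1 to 3 it read 9.27, 9.33 and 9.11, against 9.06, 8.99 and 8.89 in mutant controls 1 to 3. In wild-type knockouts 1 to 3 it read 9.20, 9.46 and 9.31, against 8.79, 8.72 and 8.92 in wild-type controls 1 to 3. Every knockout array lay above every control array of either genotype, and the share of all genes separated in this way was not counted.

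Loxl4 rose in knockouts of the wild-type by 0.51 ± 0.08, a fold of 1.42, with a limma adjusted p of 0.000896. In that comparison 4.04% of all genes tested differed by more. In the mutant the difference was 0.26 ± 0.08, a fold of 1.19, with a 95% interval of 0.08 to 0.43 and a limma adjusted p of 0.0526. It passed without wild-type control 3, wild-type knockout 1, wild-type knockout 2 or mutant knockout 3, with limma adjusted p-values of 0.0301 to 0.0491. It also passed under 5 other settings, with the filter at the median, the mean of the probe sets, robust eBayes, array weights or the dimmer probe set, with limma adjusted p-values of 0.00492 to 0.0490. Averaged over the genotypes Loxl4 rose by 0.38 ± 0.06, with a limma adjusted p of 0.000371. The difference between the knockout effects was -0.25 ± 0.11, with a limma adjusted p of 0.287. With the Fbn1 mutation, the difference was -0.09 ± 0.08 among knockouts and 0.17 ± 0.08 among controls, with limma adjusted p-values of 0.604 and 0.226.

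The dimmer of the 2 Loxl4 probe sets was examined in the same way. In mutant knockouts 1 to 3 it read 8.75, 8.80 and 8.44, against 8.12, 8.15 and 8.13 in mutant controls 1 to 3. In wild-type knockouts 1 to 3 it read 8.46, 8.58 and 8.74, against 7.98, 7.86 and 8.10 in wild-type controls 1 to 3. The knockouts lay above the controls here too. With it in place of the brighter one, Loxl4 rose by 0.53 ± 0.10 in the mutant (limma adjusted p 0.00492) and by 0.61 ± 0.10 in the wild-type (limma adjusted p 0.000948). The 2 probe sets thus gave the same direction of the knockout difference, and in the mutant the dimmer one gave 0.53 where the brighter one gave 0.26. The difference between the knockout effects was -0.08 ± 0.14 with the dimmer probe set, with a limma adjusted p of 0.794.

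**Figure D2:**
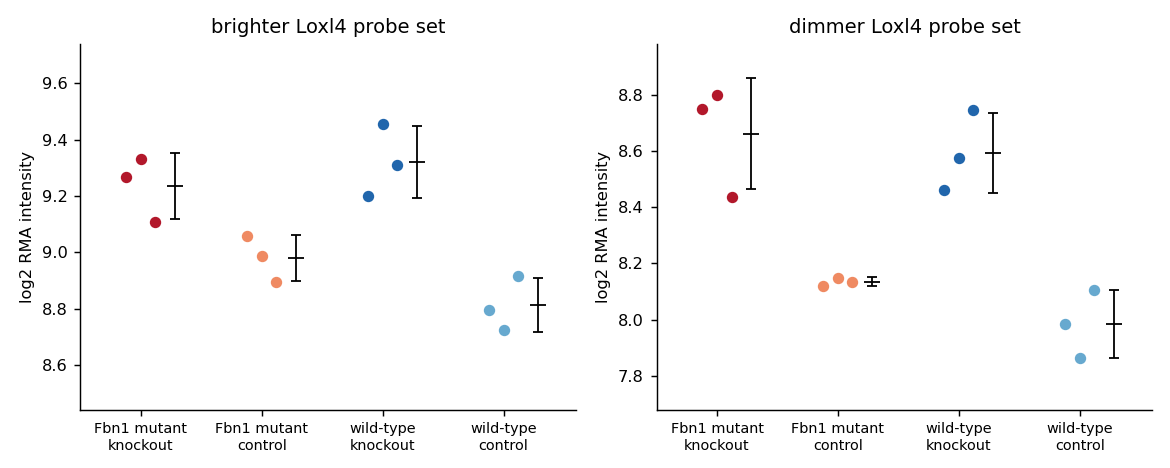
Log2 RMA intensity (vertical axes, spanning the same height) of the brighter (left) and the dimmer (right) Loxl4 probe set in Fbn1 mutant knockouts, Fbn1 mutant controls, wild-type knockouts and wild-type controls, with points for arrays 1 to 3 and the mean ± SD (n = 3). All knockout arrays lie above all control arrays in both panels.

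Counted by comparison, 2 of the 4 genes were called for the knockout in the mutant, Lox and Loxl3, both downward, where 13.4% of all genes tested were called, 7.66% upward and 5.77% downward. In the wild-type 3 were called, Loxl1 and Loxl4 upward and Loxl3 downward, where 18.8% of all genes were called, 9.17% upward and 9.66% downward. The groups did not overlap for 3 of 4 genes in the mutant and 4 of 4 in the wild-type, against 35.9% and 35.8% of all genes. For the knockout averaged over genotypes, Loxl4 was called upward and Loxl3 downward, where 28.9% of all genes were called, 15.0% upward and 13.9% downward. For these 2 genes the knockouts lay on the same side of the controls of their own genotype in both genotypes, without overlap. This held for 14.5% of all genes. For the Fbn1 mutation among knockouts, Loxl3 alone was called, where 5.96% of all genes were called, 2.8% upward and 3.16% downward. Among controls Loxl1 was called upward and Loxl3 downward, where 6.49% of all genes were called, 3.17% upward and 3.33% downward. Mutant and wild-type arrays did not overlap for 2 of 4 genes among knockouts, against 26.3% of all genes, and for 3 of 4 among controls, against 28.1%. For the difference of the knockout effects, 0 of 4 genes were called by limma, where 1.48% of all genes were called, 0.401% upward and 1.08% downward, while Lox, Loxl1 and Loxl4 had an unadjusted p under 0.05, as did 16.5% of all genes. The median difference of the 4 genes was -0.14 in the mutant and 0.17 in the wild-type for the knockout, beside 0.03 and -0.01 over all genes. These comparisons share groups of arrays and are not independent of each other.

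**Figure D3:**
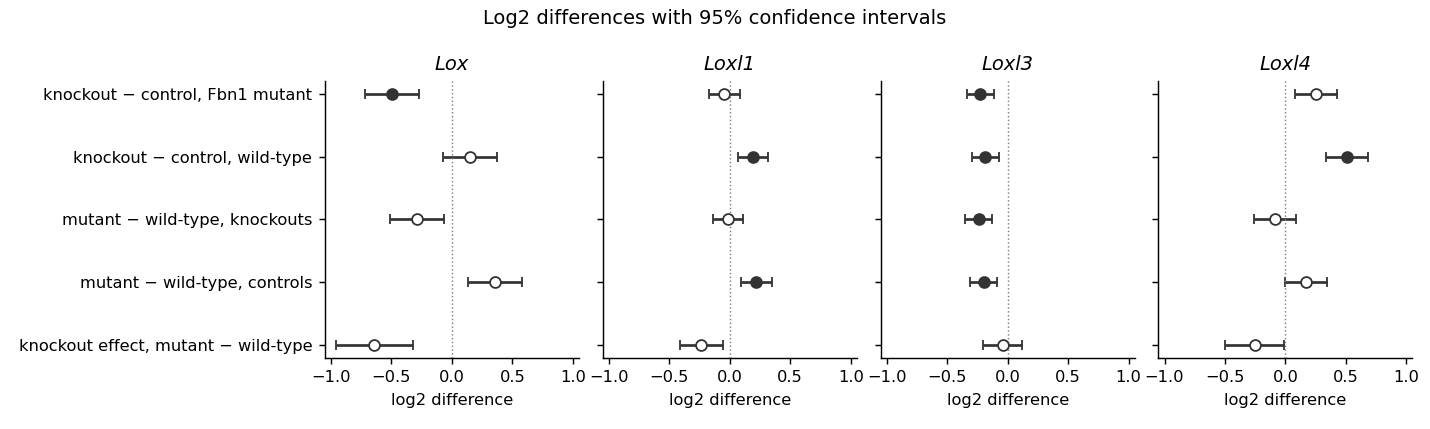
Log2 differences (horizontal axes) of Lox, Loxl1, Loxl3 and Loxl4 in 5 comparisons, with bars for the 95% confidence interval from limma. Filled points have an adjusted p under 0.05. The intervals of Loxl3 lie below 0 in all 4 pairwise comparisons, and Lox has intervals on opposite sides of 0 for the mutation among knockouts and among controls.

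Among the substrates, elastin, the main substrate in the aortic wall, moved in opposite directions in the 2 genotypes. Eln fell in knockouts of the mutant by 0.49 ± 0.10 (limma adjusted p 0.00683) and rose in those of the wild-type by 0.44 ± 0.10 (limma adjusted p 0.00662). The difference of -0.94 ± 0.14 between these effects passed, with a limma adjusted p of 0.00537. Among controls Eln rose with the mutation by 0.75 ± 0.10, with a limma adjusted p of 0.00121. For Lox the same comparisons had given -0.49, 0.15, -0.64 and 0.35, of which the first passed.

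The elastic fibre assembly list, which holds Eln, changed in part. Of its 13 genes tested, 4 fell and 1 rose in knockouts of the mutant, with a median of -0.04, and 2 fell and 3 rose in those of the wild-type, with a median of 0.05. Over all genes 5.77% fell and 7.66% rose in the mutant, and 9.66% fell and 9.17% rose in the wild-type, the shares against which the counts of each list are to be read. Fbln5, the fibulin that binds Loxl1 and elastin, fell by 0.24 ± 0.06 in mutant knockouts, and the microfibril-associated Mfap4 fell by 0.40 ± 0.06. Fbln2 rose by 0.42 ± 0.11 in mutant knockouts and by 0.79 ± 0.11 in wild-type knockouts. Mfap2 rose by 0.43 ± 0.11 in wild-type knockouts. Without mutant control 1, mutant control 2 or mutant knockout 3, 2 of the 13 fell in mutant knockouts. Among controls, 2 fell and 2 rose with the mutation, where 3.33% of all genes fell and 3.17% rose. Those called in the list included the proteoglycan Vcan (-0.67 ± 0.08) and Mfap2 (0.66 ± 0.11).

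Collagens, the other substrates, were represented by 15 fibrillar and basement membrane chains. In knockouts of the mutant 7 fell and 0 rose, with a median of -0.22, where 5.77% of all genes fell. Col4a5, Col4a6 and Col4a2, chains of the basement membrane, fell by 0.92 ± 0.05, 0.70 ± 0.07 and 0.65 ± 0.08. In knockouts of the wild-type 4 rose and 2 fell, with a median of 0.10, and Col1a1, the major chain of fibrils, rose by 0.34 ± 0.07. The largest difference there was the fall of Col4a2, by 0.49 ± 0.08, and Col4a6 fell by 0.25 ± 0.07. With the mutation among controls 10 rose and 0 fell, with a median of 0.33, where 3.17% of all genes rose, and Col1a1 rose by 0.68 ± 0.07 and Col3a1 by 0.56 ± 0.08. The difference between the knockout effects was called downward for 4 of 15, beside 1.08% of all genes. The 4 were Col4a5 (-0.76 ± 0.07), Col5a2 (-0.60 ± 0.09), Col3a1 (-0.64 ± 0.11) and Col1a1 (-0.57 ± 0.10), with limma adjusted p-values of at most 0.0155. Without the 2 arrays of highest fat marker level, 6 fell in mutant knockouts and 8 rose among controls. Without wild-type knockout 3, 2 rose and 1 fell in wild-type knockouts, and without wild-type control 1, wild-type control 2 or wild-type knockout 1, 1 fell there, against 4 without mutant control 1.

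Of 11 genes for propeptide cleavage and binding partners, 3 fell and 1 rose in knockouts of the mutant, and 2 fell and 4 rose in those of the wild-type, where 9.66% of all genes fell and 9.17% rose. The largest differences of this list were those of Thbs1, the matricellular thrombospondin, which rose by 1.5 ± 0.24 in mutant knockouts (limma adjusted p 0.00215) and by 1.86 ± 0.24 in wild-type knockouts (limma adjusted p 0.000215). Tnxb, a tenascin of collagen fibrils, fell by 0.66 ± 0.13 in mutant knockouts and by 0.72 ± 0.13 in wild-type knockouts. Postn, the periostin that helps Bmp1 to activate Lox, fell by 0.24 ± 0.04 in mutant knockouts and fibronectin, Fn1, by 0.22 ± 0.06, while Pcolce, the enhancer of Bmp1 cleavage of procollagen, rose by 0.46 ± 0.07 in wild-type knockouts. With the mutation among controls 0 fell and 4 rose, where 3.17% of all genes rose. The 4 included Fmod, a collagen-binding proteoglycan that directs Lox to its sites (0.50 ± 0.11), Postn (0.23 ± 0.04) and Fn1 (0.24 ± 0.06). Without wild-type control 3, 2 of these 11 rose in wild-type knockouts, and 2 rose with the mutation among controls without wild-type control 2, wild-type control 3 or mutant control 2. Of 14 genes that modify collagen lysine and proline, 7 fell and 0 rose in knockouts of the mutant, with a median of -0.20, where 5.77% of all genes fell and 7.66% rose. Plod2, which hydroxylates the telopeptide lysines that lysyl oxidases act on, fell by 0.30 ± 0.05 there, and its knockout effect differed between genotypes by -0.46 ± 0.08 (limma adjusted p 0.0106). P3h2, a prolyl hydroxylase of basement membrane collagen, fell by 1.02 ± 0.12 in mutant knockouts and by 0.88 ± 0.12 in wild-type knockouts. In wild-type knockouts 3 of these 14 fell and 2 rose, P4ha3, a subunit of collagen prolyl hydroxylase, by 1.68 ± 0.21 and the isomerase Ppib by 0.30 ± 0.06.

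Copper is the cofactor, and 14 genes of copper and metal handling were tested, not all of which serve lysyl oxidases. Of these, 0 were called in knockouts of the mutant, where 13.4% of all genes were called. In those of the wild-type, where 18.8% were called, 2 rose. They were Slc31a1, the copper importer Ctr1, by 0.55 ± 0.07 and the metalloreductase Steap4 by 0.52 ± 0.11. Slc31a1 also rose with the mutation among controls by 0.46 ± 0.07, and its knockout effects differed by -0.58 ± 0.10 (limma adjusted p 0.0142). Atp7a, the pump that loads copper onto secreted enzymes, was called in no comparison. A list of 10 genes held other amine oxidases, crosslinking enzymes and the superoxide dismutases Sod1 and Sod3. Of these 10, 3 fell in knockouts of the mutant, beside the 13.4% of all genes called. In those of the wild-type 2 fell and 2 rose, beside the 18.8% called. Those that rose were 0 or 1 without any 1 of the 6 wild-type arrays. Aoc3, a copper amine oxidase of smooth muscle outside this family, fell by 0.18 ± 0.05 in mutant knockouts and by 0.35 ± 0.05 in wild-type knockouts. Sod3, also among those that fell in both, fell by 0.24 ± 0.05 in mutant knockouts and by 0.33 ± 0.05 in wild-type knockouts. The peroxidase Pxdn, which crosslinks collagen IV, fell by 0.42 ± 0.09 in mutant knockouts and rose by 0.68 ± 0.09 with the mutation among controls.

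**Figure D4:**
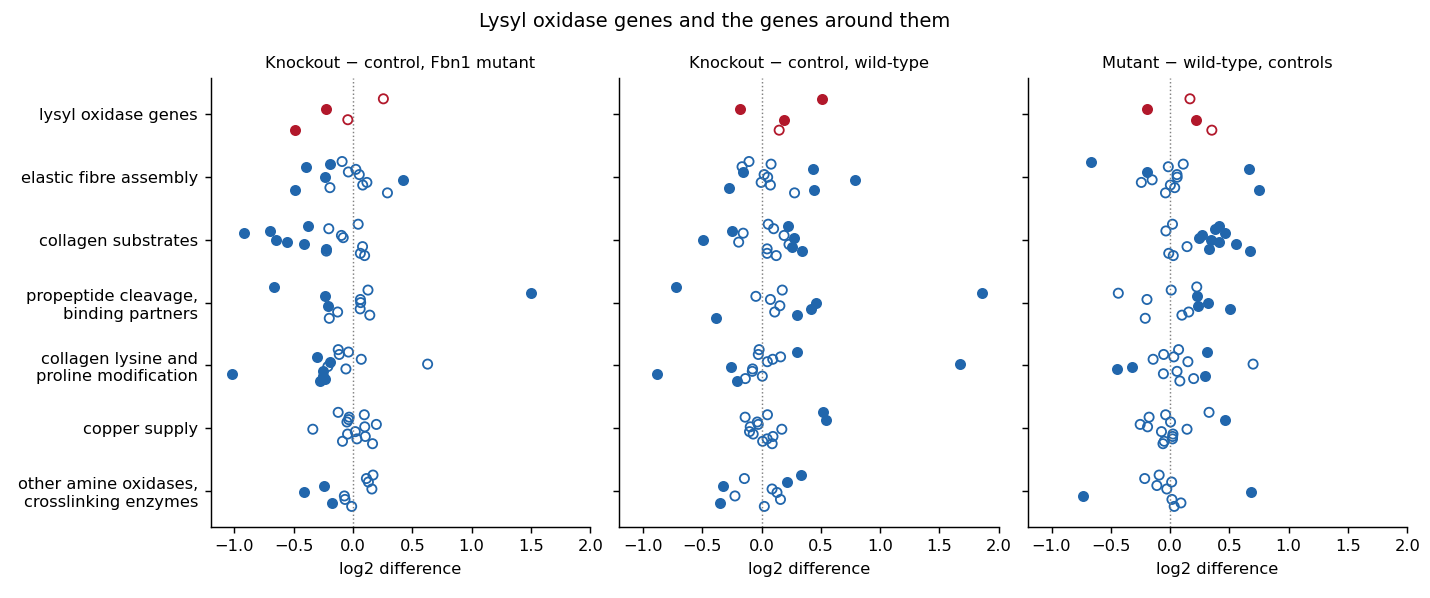
Log2 differences (horizontal axes) of the 4 lysyl oxidase genes (red) and of the genes of 6 lists (blue) for knockout minus control in the Fbn1 mutant (left) and the wild-type (middle), and for the mutant minus the wild-type among controls (right). Each point is a gene, and filled points have an adjusted p under 0.05. Collagen substrates include 7 filled points below 0 on the left and 10 above 0 on the right.

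The genes whose levels ran most like each member over the 12 arrays were ranked by Pearson's r, as a description in which arrays of 4 groups are pooled. For Lox they were Fstl1, a secreted glycoprotein (r = 0.93), Aldh18a1, an enzyme of proline synthesis (0.92), and Yipf5 (0.91). For Loxl1 they were Tmsb10, which binds actin (0.95), Ckap4 (0.93) and Nans, an enzyme of sialic acid synthesis (0.90). For Loxl3 they were the transcription factor Tbx18 (0.95), Kctd16 (0.95) and Fbxo30 (0.95). For Loxl4 they were the kinase Nek6 (0.96), the adhesion receptor Adgrd1 (0.96) and Melk, a kinase of dividing cells (0.96). These genes were picked for their likeness over the same arrays, so group differences like those of the member follow from the choice. Fstl1 fell by 0.22 ± 0.05 in mutant knockouts and differed in its knockout effect by -0.33 ± 0.07 (limma adjusted p 0.0462). For Aldh18a1 and Yipf5 the knockout effects differed by -0.71 ± 0.18 and -0.23 ± 0.08, which did not pass (limma adjusted p 0.0731 and 0.160). Kctd16 fell by 0.64 ± 0.11 in mutant knockouts and by 0.81 ± 0.11 in wild-type knockouts, and Adgrd1 rose by 0.49 ± 0.14 in mutant knockouts and by 0.75 ± 0.14 in wild-type knockouts.

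Some markers of other cell types and of cell division were called in comparisons in which lysyl oxidase genes were called. Of all genes, 9.17% rose and 9.66% fell in wild-type knockouts, and 7.66% rose and 5.77% fell in mutant knockouts. With the mutation, 3.17% rose and 3.33% fell among controls, and 2.8% rose and 3.16% fell among knockouts. These are the shares against which the marker counts are to be read. All 7 macrophage markers rose in wild-type knockouts (median 1.03) and 4 of 7 in mutant knockouts (median 0.36), and their summed intensity was 7695 to 7898 in mutant knockouts, 9632 to 10747 in wild-type knockouts, 5408 to 6748 in mutant controls and 4779 to 5599 in wild-type controls. Of 6 cell division markers 6 rose in wild-type knockouts, 1 in mutant knockouts and 6 with the mutation among controls. Of 6 endothelial markers 4 rose in knockouts of each genotype, with medians of 0.48 in the mutant and 0.53 in the wild-type. Fibroblast markers, of 6, had 1 up and 1 down in mutant knockouts and 3 up in wild-type knockouts, and their summed intensity was 37586 to 41960 in mutant knockouts, 44766 to 47748 in wild-type knockouts, 40515 to 43342 in mutant controls and 38443 to 42841 in wild-type controls. Smooth muscle markers had 0 of 6 called in mutant knockouts and 2 of 6 down in wild-type knockouts, Smtn by -0.17 ± 0.05 and Lmod1 by -0.18 ± 0.06. Of 6 cardiac markers 2 rose in knockouts of each genotype, and 1 of 4 tested fat markers did. With the mutation among controls, where Loxl1 and Loxl3 were called, 1 of 7 macrophage and 1 of 6 fibroblast markers rose. In that comparison 0 of 6 endothelial, 0 of 6 smooth muscle, 0 of 6 cardiac and 0 of 4 fat markers were called. For the Fbn1 mutation among knockouts, where Loxl3 was called downward, 4 of 7 macrophage markers fell (median -0.40), Itgam by 0.47 ± 0.06 and Adgre1 by 0.52 ± 0.08 among them. There 1 of 6 fibroblast markers, Lum, fell by 0.45 ± 0.08, and 0 of 6 endothelial, 0 of 6 smooth muscle and 0 of 6 cell division markers were called. RMA intensities have no true 0, so absence of a marker cannot be read from them. The part of these cells in the values of Lox, Loxl1, Loxl3 and Loxl4 was not tested.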

How the data were processed

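The deposited values are RMA intensity on a linear scale for 35556 probe sets. Per the submitters' processing notes the authors used RMA and Partek 6.4, and the order of these steps is not given in the sources used here. From these values log2 was computed. Probe sets with several symbols (1621) or none (12146) were left out of gene tests. Of 21789 probe sets with 1 symbol, 21698 were matched to RefSeq by Entrez ID, with 0 symbols changed. A gene was tested only where its mean reached the 25th percentile of these probe sets (log2 7.31, intensity 159).

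The model, in limma 3.58.1 under R 4.3.3, held a mean for each group and used the 12 arrays together (lmFit and eBayes, 8 residual and 4.54 prior degrees of freedom). Tests were two-sided, in 6 comparisons. The procedure was run on simulated data with independent normal noise for each gene. Those data lack array effects and correlation between genes, so they do not test the calls made here. The number of arrays limits precision.

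The members and the 6 gene lists and 7 marker lists were chosen with earlier results of these data known. Named are every member, Tgfbr2, the 3 tested genes of highest Pearson's r with each member (predicted genes, receptors of smell, Mir and Snor symbols left out), and up to 4 genes of smallest p per list and comparison. Atp7a, outside that rule, was named after its values were seen. Alternatives covered the filter, scaling, probe set, variance model, array weights, arrays in the fit and a replicate block.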

Additional observations from a re-analysis of the deposited data

Results flagged for a closer look

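Lox was singled out because its knockout arrays lay on opposite sides of their controls in the 2 genotypes. All 3 mutant knockouts lay below all 3 mutant controls, and all 3 wild-type knockouts lay above all 3 wild-type controls. The mutant difference of -0.49 ± 0.10 passed the test (limma adjusted p 0.0100). The wild-type difference of 0.15 ± 0.10, with a 95% interval of -0.07 to 0.37, did not (limma adjusted p 0.358). Groups did not overlap for 35.9% of all genes in the mutant and 35.8% in the wild-type. The share of genes separated in opposite directions in the 2 genotypes was not counted. The difference of the knockout effects, Fbn1 mutant minus wild-type, was -0.64 ± 0.15 on the log2 scale, with a limma adjusted p of 0.0512. Over the 22 alternatives run for it the difference lay between -0.79 and -0.52 and its adjusted p between 0.0252 and 0.125.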

How the results depend on the processing

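Over 24 alternatives, 12 of which left out 1 array each, the 24 differences of the 4 genes were recomputed 550 times. In 470 the direction and the side of the threshold were those reported, in 54 a call was lost, in 23 one was gained and in 3 the sign turned. The fall of Lox in mutant knockouts, the rise of Loxl4 in wild-type knockouts and the calls of Loxl3 and Loxl4 averaged over genotypes held in every alternative run. Signs turned only for uncalled differences between mutant and wild-type knockouts, Loxl1 to 0.013 with array weights and to 0.016 without mutant knockout 3 (range without 1 array -0.045 to 0.016), and Loxl4 to 0.067 with its dimmer probe set. Of the 4 genes, the number called for the mutation among controls was 2 as reported. It was 0 with no filter, with only the groups compared or with the replicate block. It was 1, Loxl3, with quantile normalization or with median centring. Without the 2 arrays of highest fat marker level it was 1 as well, but that gene was Lox and neither reported call held. For the difference of the knockout effects it was 0 as reported and 1, Lox, with the filter at the median, a variance trend, robust eBayes, array weights, the replicate block or without those 2 arrays. It was 1 of a reported 3 in wild-type knockouts with only the groups compared, 1 of a reported 2 in mutant knockouts without the 2 arrays, and 0 of a reported 1 for the mutation among knockouts under either of these settings. Changes by 1 gene also occurred. In wild-type knockouts 2 were called with no filter, quantile normalization, median centring, the replicate block or without the 2 arrays. In mutant knockouts 3 were called with the filter at the median, the mean of probe sets, robust eBayes or array weights, and for the mutation among controls 3 with a variance trend or array weights. Leaving out 1 array gave 1 to 3 genes in the knockouts of either genotype, 2 to 3 averaged over genotypes, 0 to 3 for the mutation among controls, 0 to 1 among knockouts and 0 to 1 for the difference. The causes were not tested. Leaving out the 2 arrays, mutant knockout 1 and mutant control 3, was chosen after seeing the data. Same-numbered arrays did not deviate together (r -0.22 to 0.24 over 18 pairs), so numbers were not taken to pair samples, and with the replicate block the Lox difference had a limma adjusted p of 0.0493. Over these alternatives, calls among all genes ranged from 1831 to 3446 for the knockout in the wild-type, 894 to 3687 in the mutant, 3263 to 5491 averaged, 349 to 1568 for the mutation among controls, 378 to 1687 among knockouts and 106 to 469 for the difference. Of 1632 recomputed counts of the lists, 1454 were equal or within 1.5 times.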
